A study of Mus musculus with 16 samples.

Results

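The genes described here are the mouse WNT ligands, the frizzled receptors that bind them, and 2 families of secreted antagonists, the secreted frizzled-related proteins (Sfrp) and the Dickkopf proteins (Dkk). They were found by gene symbol: 37 of the 29057 genes in the deposited table match, made up of 19 ligands, 10 receptors, 4 Sfrp genes and 4 Dkk genes. RNA was sequenced from primary preadipocytes, the cells from which fat cells form, grown from the stromal-vascular fraction of fat of C57BL/6N mice that carry a UCP1 reporter, an allele shared by all groups. The 16 libraries form 4 groups of 4: brown preadipocytes (interscapular fat) with Fgf8b, brown controls, white preadipocytes (inguinal fat) with Fgf8b, and white controls. Fgf8b is a secreted fibroblast growth factor. The sources used here do not give its dose, the time of treatment, the composition of the control treatment or the age of the mice. According to the design text there were 3 cultures, yet there are 4 libraries in each group. P-values therefore reflect how these libraries vary, part of which may be technical. A library is called by its group and its label's number.

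WNT proteins are lipid-modified ligands that bind a frizzled receptor on the surface of a neighbouring cell or of the cell that made them. With the co-receptors Lrp5 and Lrp6 this stabilises beta-catenin, which enters the nucleus and acts with TCF and LEF factors on target genes, while other receptor pairs, such as frizzled with Ror1 or Ror2, signal through planar cell polarity or calcium without beta-catenin. Sfrp proteins carry a frizzled-like domain and bind WNT proteins outside the cell, and Dkk1, Dkk2 and Dkk4 act on Lrp5 and Lrp6. In fat, beta-catenin signalling is known to hold preadipocytes undifferentiated, and Wnt10b is the ligand best known for it.

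Levels are given in RPKM (reads scaled by transcript length and library depth) of 1 representative transcript per gene, as mean ± SD over n = 4 libraries, with the whole reads behind them read back from the values. Depth read back in this way was 13.7 to 20.1 M reads per library. Log2 changes are of the sum over all entries of a gene on the log2(summed RPKM + 0.5) scale, which understates the change of low genes, with a standard error (SE). Each was tested with limma over all 15220 genes with at least 0.5 summed RPKM in at least 4 libraries. A gene is called at a Benjamini-Hochberg adjusted p under 0.05. The sum grows with the number of entries listed for a gene, so it is not the gene's level. Over all libraries Sfrp1, with 4 entries, averaged 246 RPKM and 999 summed RPKM. Wnt5a, with 12 entries, averaged 17.4 and 141. The filter and the weight of the added 0.5 thus depend on the number of entries. All 7 preadipocyte markers looked at reached 0.5 RPKM in every group, with Pdgfra, a receptor typical of these precursors, at 67.5 to 98.1 RPKM. Of 6 markers of mature adipocytes only Fabp4 did, and Adipoq and Plin1 stayed under 0.12 RPKM in every library, although the source label reads adipocytes. Zic1, a brown lineage factor, had 12.7 and 12.8 RPKM in brown Fgf8b and control groups, against 0.163 and 0.176 RPKM in the white ones. The rest of that marker list separated the depots less. Ebf2 had 9.55 and 11.7 RPKM in brown Fgf8b and control groups, against 6.26 and 7.91 RPKM in the white ones. Ucp1 had 4.45 and 2.41 RPKM in the brown groups, against 6.25 and 2.31 RPKM in the white ones, so with Fgf8b it was higher in white. Dusp6, a phosphatase induced by FGF signalling, had 40.8 ± 1.14 RPKM with Fgf8b and 3.67 ± 0.392 RPKM in brown controls, and 26.5 ± 2.55 RPKM with Fgf8b and 3.98 ± 0.455 RPKM in white controls. Brown control 15 stood apart: over recovered reads, chi-square divided by its degrees of freedom was 8.03 to 8.87 for pairs with it, against 1.36 to 2.83 for all other pairs within a group.

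With Fgf8b 14 of the 23 genes tested fell in both depots. All 3 Sfrp genes tested fell in both depots, Wnt16 was the ligand with the lowest log2 change on the log2(summed RPKM + 0.5) scale, 6 of the 8 frizzled receptors tested fell in both depots, and Dkk2, Wnt5a and Fzd6 rose in both. In brown preadipocytes 5 of the 23 genes tested rose and 17 fell, where 71.4% of all genes tested were called, 36.7% higher and 34.7% lower. In white preadipocytes 4 rose and 16 fell, where 65.7% of all genes were called, 36.3% higher and 29.5% lower. The median log2 change of the 23 genes was -0.80 in brown and -0.60 in white preadipocytes, and that of all genes tested was 0.01 in brown and 0.04 in white preadipocytes. Changes of at least 2-fold were 2 higher and 9 lower in brown preadipocytes, where 5.01% and 9.29% of all genes changed so far up and down, and 1 higher and 8 lower in white preadipocytes, where the shares were 4.39% and 7.30%. Some of these sizes rest on the summed entries. On the log2(RPKM + 0.5) scale of the representative transcript Wnt10a (0.51), Wnt10b (-0.505) and Wnt11 (-0.556) in brown preadipocytes stayed under 2-fold. So did Wnt2 in white ones (-0.87). Lower in both depots were 14 genes, and 24.2% of all genes tested were. Higher in both were 4 genes, and 28.5% of all genes were. Of the 23, 3 ligands passed the filter, which is on summed RPKM, through some groups only. On the representative transcript more genes had a group mean under 0.5 RPKM. Examples are Wnt11 (0.249), Wnt2 (0.373) and Wnt9a (0.412) in white Fgf8b libraries and Wnt16 (0.351) in brown Fgf8b libraries. The counts above are therefore a description of the genes that passed the filter.

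**Figure D1:**
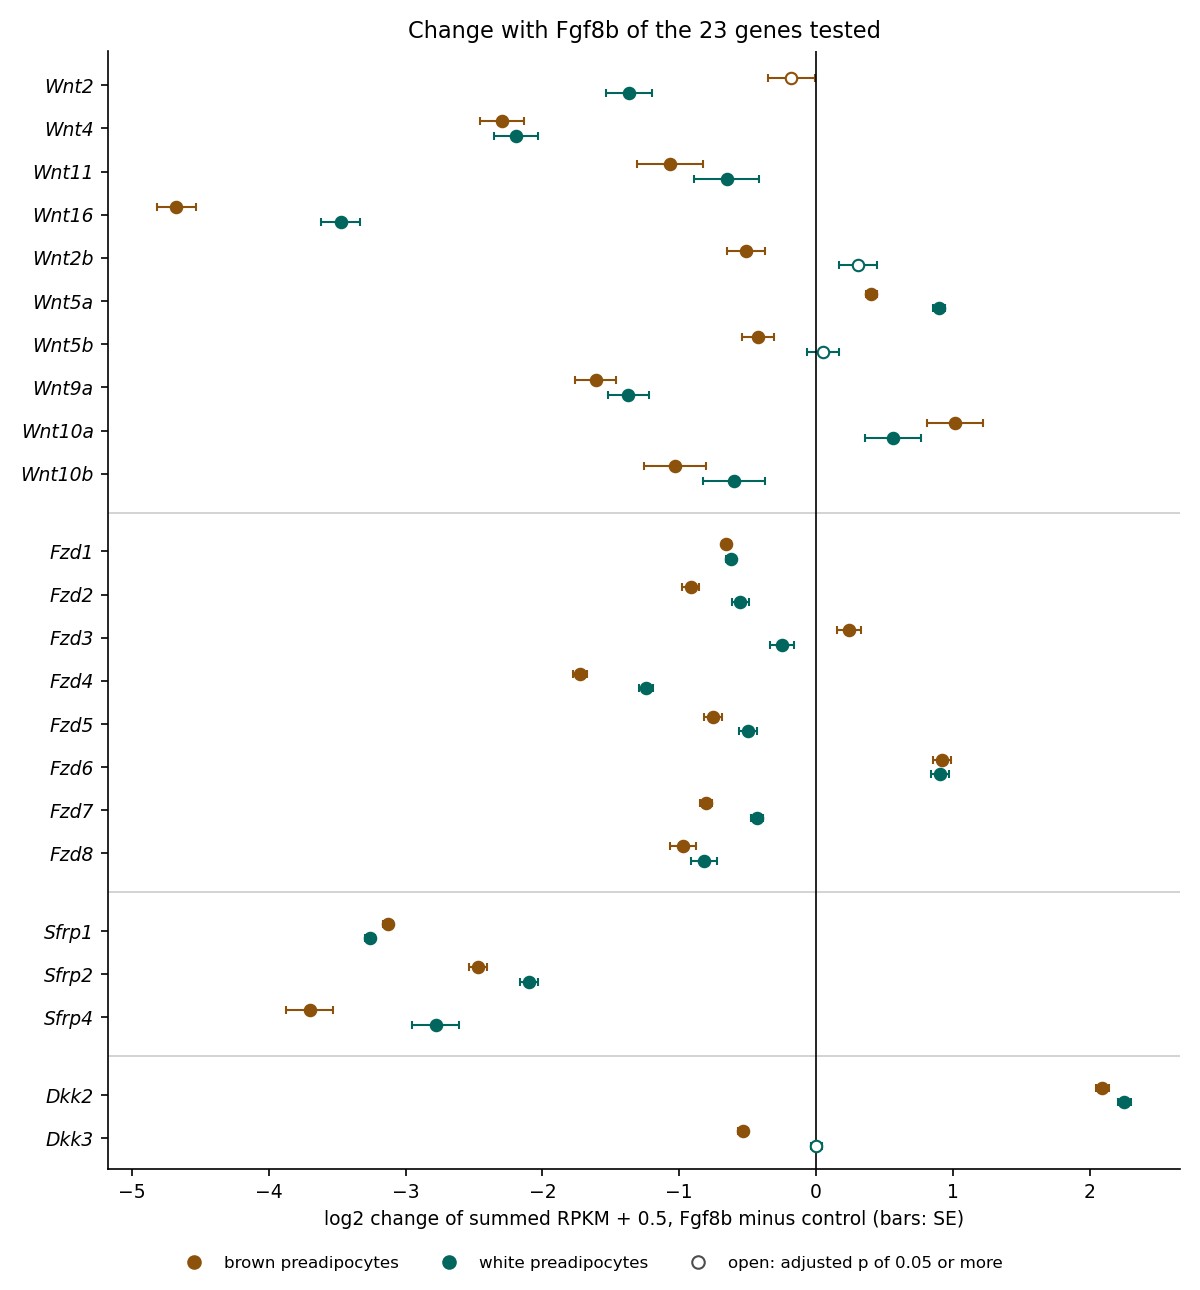
Log2 change with Fgf8b (x axis, log2 of summed RPKM + 0.5, Fgf8b minus control) of the 23 genes tested, by class down the page, in brown and in white preadipocytes; points are limma estimates, bars are standard errors and open points were not called. Wnt16, Sfrp4 and Sfrp1 lie farthest to the left, Dkk2 farthest to the right, and Fzd3 lies on opposite sides of 0 in the 2 depots.

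Promoters of 4 of these genes are shown, picked from those whose transcripts moved the same way in both depots: Wnt11, Wnt16 and Sfrp2 were lower with Fgf8b and Dkk2 was higher. They were chosen after the values were seen. The sequences are those of RefSeq on GRCm38.p6, from 250 bases before to 50 bases after the annotated start, all 4 on the plus strand, read 5′ to 3′. The sources used here do not name the build behind the deposited values. Capitals mark CTTTGAT, the letters TCF and LEF factors are known to bind, searched on both strands, so that a match on the other strand reads ATCAAAG.
Wnt11 promoter, chr7:98834862-98835161: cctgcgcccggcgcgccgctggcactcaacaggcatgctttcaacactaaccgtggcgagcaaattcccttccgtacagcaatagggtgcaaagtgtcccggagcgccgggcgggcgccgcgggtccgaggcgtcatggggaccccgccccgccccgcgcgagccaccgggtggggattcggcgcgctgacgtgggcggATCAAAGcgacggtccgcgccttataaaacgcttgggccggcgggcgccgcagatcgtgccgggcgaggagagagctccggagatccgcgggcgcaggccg
Wnt16 promoter, chr6:22287977-22288276: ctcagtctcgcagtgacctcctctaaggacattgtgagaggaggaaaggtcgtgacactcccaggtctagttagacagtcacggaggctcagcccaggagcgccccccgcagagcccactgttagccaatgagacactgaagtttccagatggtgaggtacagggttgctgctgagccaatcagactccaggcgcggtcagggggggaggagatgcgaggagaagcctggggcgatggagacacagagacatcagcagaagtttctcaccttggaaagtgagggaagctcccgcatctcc
Sfrp2 promoter, chr3:83766071-83766370: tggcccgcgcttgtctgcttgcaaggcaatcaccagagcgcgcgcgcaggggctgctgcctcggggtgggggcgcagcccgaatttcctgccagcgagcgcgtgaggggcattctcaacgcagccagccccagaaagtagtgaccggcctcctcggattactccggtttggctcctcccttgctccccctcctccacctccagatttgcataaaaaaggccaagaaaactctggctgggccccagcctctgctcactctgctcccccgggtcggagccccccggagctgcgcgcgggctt
Dkk2 promoter, chr3:132085042-132085341: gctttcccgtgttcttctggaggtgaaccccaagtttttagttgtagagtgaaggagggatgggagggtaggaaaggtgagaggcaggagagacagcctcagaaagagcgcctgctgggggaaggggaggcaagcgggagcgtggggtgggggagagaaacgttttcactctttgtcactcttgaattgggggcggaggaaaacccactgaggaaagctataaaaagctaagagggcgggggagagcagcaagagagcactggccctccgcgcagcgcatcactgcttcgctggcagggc
The Wnt11 sequence holds 1 match, which starts at position -51 from the annotated start, and a window at another annotated start of Wnt11 holds 0. Of the Wnt11 windows, the one shown was picked because it holds the match. No match lies in the Wnt16, Sfrp2 or Dkk2 window, whose GC content is 58.0%, 66.0% and 57.7%, against 71.3% in the Wnt11 window. RefSeq promoters were matched for 14 of the 23 genes tested, 17 windows in all, and 2 of the 17 hold the letters, the other being 1 of 3 starts of Wnt5b. Of 11 windows of genes lower in both depots 1 holds the letters, and of 1 window of a gene higher in both 0. Of 32851 promoters of 27025 genes, 3.73% hold them.

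Of the 19 ligands 10 passed the filter on low values, and Wnt5a and Wnt16 made up most of their RNA. Wnt5a, best known for signalling without beta-catenin through Ror receptors, rose with Fgf8b in both depots. In brown preadipocytes it had 19.98, 20.9, 21.0 and 20.5 RPKM with Fgf8b, against 14.3, 14.6, 15.1 and 16.5 RPKM in controls. White preadipocytes had 20.5, 22.8, 23.5 and 22.9 RPKM with Fgf8b, against 11.3, 11.2, 11.96 and 12.01 RPKM in controls. No Fgf8b library of either depot overlapped the controls of that depot. How many of all genes tested have groups without overlap was not counted. Overlap or its absence, here and below, only describes the values of a gene. The log2 change of Wnt5a was 0.40 in brown (SE 0.0425, limma adjusted p = 8.23e-08) and 0.90 in white preadipocytes (SE 0.0425, limma adjusted p = 9.15e-13). A gene on the other strand overlaps Wnt5a, and the sources used here do not say whether reads were counted by strand.

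Wnt16, a ligand best known from bone, fell to a few reads. In brown preadipocytes it had 0.225, 0.319, 0.288 and 0.572 RPKM with Fgf8b, on 6 to 14 reads per library, against 11.3, 12.8, 12.5 and 13.6 RPKM in controls, on 258 to 364 reads. Those of white fat had 0.896, 0.912, 0.805 and 1.003 RPKM with Fgf8b, on 26 to 29 reads, against 12.97, 11.8, 11.8 and 11.2 RPKM in controls, on 338 to 390 reads. The 2 control groups overlapped, while every brown Fgf8b library lay below every white one. Mean levels were 35.8-fold lower in brown and 13.2-fold lower in white preadipocytes, and the log2 changes were -4.67 (SE 0.142, limma adjusted p = 9.93e-16) and -3.47 (SE 0.142, limma adjusted p = 1.09e-13). In white controls the levels of Wnt16 and Wnt5a overlapped, and in the Fgf8b groups Wnt5a was the one ligand above 2 RPKM.

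The summed level of all ligands was 25.4 ± 0.686 RPKM with Fgf8b and 35.6 ± 1.67 RPKM in brown controls, and 26.9 ± 1.10 RPKM with Fgf8b and 29.2 ± 0.203 RPKM in white controls. Wnt5a alone held 81.2% ± 0.991 of it with Fgf8b and 42.4% ± 0.841 in brown controls, and 83.4% ± 1.78 with Fgf8b and 39.8% ± 1.42 in white controls (SD, n = 4 each). Neither the sum nor the share of Wnt5a overlapped between Fgf8b and control libraries of a depot.

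**Figure D2:**
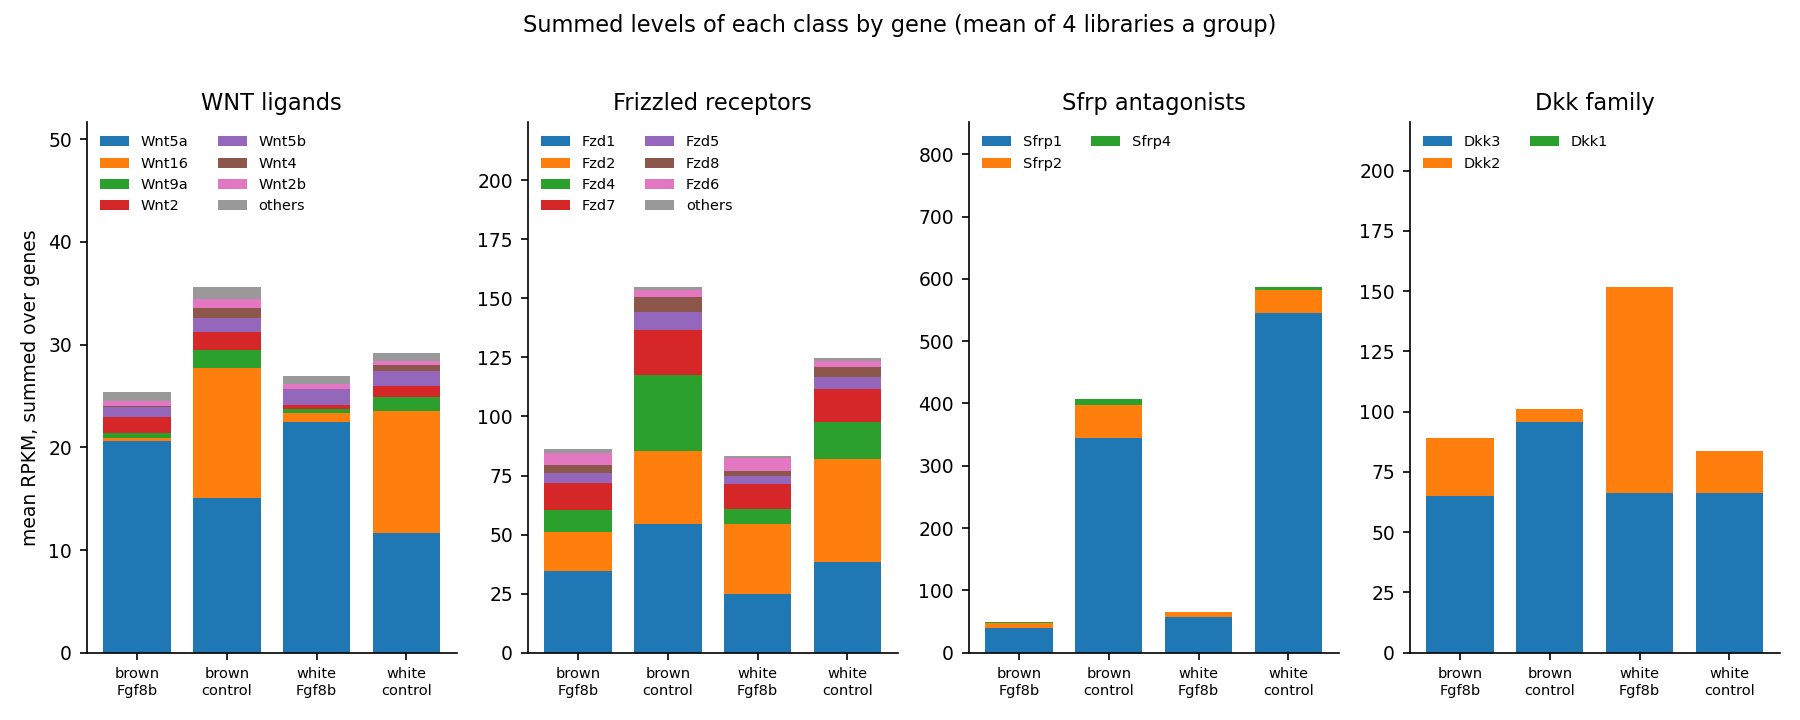
Mean RPKM of each gene, stacked within its class (y axis, RPKM summed over genes; a separate scale for each class), in the 4 groups of 4 libraries. Wnt5a fills most of the ligand bar in both Fgf8b groups, the Sfrp bars of the Fgf8b groups are a small part of those of the controls, and Dkk2 widens in the Fgf8b groups.

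The other 8 ligands tested reached at most 1.996 RPKM in any library. Wnt4, known from kidney and gonad development, fell in both depots. It had 0.0654, 0.0694, 0.161 and 0.142 RPKM with Fgf8b on 4 to 9 reads, against 1.09, 1.19, 0.968 and 0.928 RPKM in brown controls on 57 to 72 reads. White preadipocytes had 0.0600, 0.0137, 0.0260 and 0.0486 RPKM with Fgf8b on 1 to 4 reads, against 0.502, 0.622, 0.579 and 0.635 RPKM in controls on 30 to 47 reads. The log2 changes were -2.30 in brown (SE 0.162, limma adjusted p = 2.87e-10) and -2.19 in white preadipocytes (SE 0.162, limma adjusted p = 7.15e-10). At such levels the size depends on the scale: in white preadipocytes it was -3.44 with a pseudocount of 0.1, -3.92 with limma-voom on recovered reads and -1.01 on the representative transcript alone. Without a pseudocount the mean RPKM of Wnt4 was 15.8-fold lower with Fgf8b than in white controls, and that of Wnt16 13.2-fold lower.

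Wnt9a, a ligand of joint development, fell in both depots. Brown preadipocytes had 0.433, 0.360, 0.454 and 0.718 RPKM with Fgf8b, against 1.996, 1.83, 1.70 and 1.71 RPKM in controls (log2 -1.61, SE 0.149, limma adjusted p = 1.4e-08). White preadipocytes had 0.415, 0.490, 0.314 and 0.429 RPKM with Fgf8b, against 1.21, 1.39, 1.20 and 1.51 RPKM in controls (log2 -1.37, SE 0.149, limma adjusted p = 1.59e-07). The groups did not overlap in either depot. Wnt11, a ligand of cell movements in the embryo, had 0.279 ± 0.0759 RPKM with Fgf8b and 0.642 ± 0.0640 RPKM in brown controls (log2 -1.07, SE 0.24, limma adjusted p = 0.000603), and 0.249 ± 0.108 RPKM with Fgf8b and 0.416 ± 0.0642 RPKM in white controls (log2 -0.65, SE 0.24, limma adjusted p = 0.0228). Its white call was lost without white Fgf8b 2 (log2 -0.399, adjusted p = 0.108), without white Fgf8b 6 (-0.566) and without white control 3 (-0.576). On the representative transcript its log2 change was -0.56 in brown and -0.30 in white preadipocytes. A gene on the other strand overlaps Wnt11.

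Wnt10a and Wnt10b, close relatives of each other, moved in opposite directions on few reads. Wnt10b had 0, 0.179, 0.0308 and 0.0306 RPKM with Fgf8b, on 0 to 6 reads, against 0.458, 0.370, 0.197 and 0.168 RPKM in brown controls, on 6 to 14 reads, and 1 Fgf8b library lay among the controls (log2 -1.03, SE 0.224, limma adjusted p = 0.00045). In white preadipocytes it had 1 to 6 reads with Fgf8b and 6 to 11 reads in controls (log2 -0.60, SE 0.224, limma adjusted p = 0.0254). Wnt10a had 8 to 12 reads with Fgf8b and 1 to 6 reads in brown controls (log2 1.02, SE 0.206, limma adjusted p = 0.000227), and 4 to 7 reads with Fgf8b and 0 to 3 reads in white controls (log2 0.56, SE 0.206, limma adjusted p = 0.0226). The white call of Wnt10a was lost without white Fgf8b 2 (0.491), white Fgf8b 4 (0.496), white control 5 (0.53) or white control 7 (0.451), and that of Wnt10b without white Fgf8b 2 (-0.572), white Fgf8b 8 (-0.484) or white control 5 (-0.507). The size of such changes depends on the scale: for Wnt10a in white preadipocytes it was 0.27 on the representative transcript and 1.29 with a pseudocount of 0.1, and for Wnt10b in brown ones -0.505 and -1.97. Both and Wnt4 passed the filter through some groups only. Over the 4 libraries of each group, Wnt10b reached 0.5 summed RPKM in 0 with Fgf8b and 3 in brown controls, and in 0 with Fgf8b and 3 in white controls.

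Wnt2, Wnt2b and Wnt5b were called in 1 depot. Wnt2, which acts with Wnt2b in lung development, had 0.434, 0.248, 0.399 and 0.410 RPKM with Fgf8b, against 0.816, 1.48, 0.995 and 1.15 RPKM in white controls, without overlap (log2 -1.37, SE 0.17, limma adjusted p = 9.78e-07), and its log2 change was -0.87 on the representative transcript. In brown preadipocytes it had 1.36, 1.54, 1.52 and 1.61 RPKM with Fgf8b, against 1.96, 1.41, 1.75 and 1.83 RPKM in controls, and the groups overlapped (log2 -0.18, SE 0.17, limma adjusted p = 0.352). Wnt2b fell in brown preadipocytes, with 0.533 ± 0.0588 RPKM with Fgf8b and 0.805 ± 0.0554 RPKM in controls (log2 -0.51, or -0.34 on the representative transcript, SE 0.137, limma adjusted p = 0.00272), and had 0.526 ± 0.119 RPKM with Fgf8b and 0.391 ± 0.0533 RPKM in white controls (log2 0.31, SE 0.137, limma adjusted p = 0.0566), a change called without white Fgf8b 4 (0.427) or white control 5 (0.354), and with limma without trend and robust moderation (adjusted p = 0.0226). Wnt5b, the close relative of Wnt5a, fell in brown preadipocytes, with 0.964 ± 0.0977 RPKM with Fgf8b and 1.33 ± 0.157 RPKM in controls (log2 -0.42, SE 0.118, limma adjusted p = 0.00353), and had 1.51 ± 0.228 RPKM with Fgf8b and 1.451 ± 0.157 RPKM in white controls (log2 0.05, SE 0.118, limma adjusted p = 0.731).

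The other 9 ligands did not pass the filter. Wnt3a was listed at 0 in all 16 libraries, and Wnt7a, Wnt8b and Wnt9b had 1 read each over all of them. Wnt1 had 3, Wnt8a 5 and Wnt3 7 reads over the 16 libraries. Wnt6, which with Wnt10a and Wnt10b is known to hold back fat cell formation, had 31 reads, 3 in brown Fgf8b, 13 in brown control, 6 in white Fgf8b and 9 in white control libraries. Without the filter its log2 change in brown preadipocytes was -0.34 (SE 0.114, limma adjusted p = 0.0192). Such p-values on few reads carry little weight. In the same fit Dkk1, with 2 reads over the 16 libraries, had a log2 change of 0.18 in brown preadipocytes (SE 0.071, limma adjusted p = 0.0468). Wnt7b, known from lung and bone, had 16 reads in brown Fgf8b and 9 in brown control libraries. In white preadipocytes it had 38 reads with Fgf8b, 6 to 13 in each library, against 0 reads in the 4 controls, which is at least 12.5-fold higher against a floor of 3 reads over the control group. Without the filter its log2 change in white preadipocytes was 1.13 (SE 0.113, limma adjusted p = 3.18e-07) and in brown preadipocytes 0.24 (SE 0.113, limma adjusted p = 0.091). Its highest level was 0.221 RPKM, and a gene on the other strand overlaps it.

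Of the 10 frizzled receptors 8 were tested and all 8 were called in each depot, 6 of them lower in both. Of all genes tested, 71.4% were called in brown and 65.7% in white preadipocytes, and 24.2% were lower in both. The summed receptor level was 86.2 ± 3.12 RPKM with Fgf8b and 154.8 ± 2.68 RPKM in brown controls, and 83.4 ± 0.475 RPKM with Fgf8b and 124.8 ± 1.10 RPKM in white controls. Fzd4, which also binds the non-WNT ligand norrin, fell most. In brown preadipocytes it had 9.58, 9.47, 10.6 and 9.11 RPKM with Fgf8b, against 30.3, 31.7, 32.5 and 33.8 RPKM in controls, which is 3.31-fold lower (log2 -1.72, SE 0.052, limma adjusted p = 8.73e-16). White preadipocytes had 6.87, 6.37, 6.66 and 6.65 RPKM with Fgf8b, against 16.6, 15.5, 14.8 and 16.1 RPKM in controls, which is 2.38-fold lower (log2 -1.24, SE 0.052, limma adjusted p = 1.55e-13). Every Fgf8b library lay below every control of its depot.

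Fzd1, Fzd2 and Fzd7 form one branch of the receptor family and were, with Fzd4, its most abundant members here. Fzd1 had 34.4 ± 1.04 RPKM with Fgf8b and 54.3 ± 0.721 RPKM in brown controls (log2 -0.65, SE 0.0357, limma adjusted p = 6.12e-12), and 24.9 ± 0.891 RPKM with Fgf8b and 38.5 ± 0.442 RPKM in white controls (log2 -0.62, SE 0.0357, limma adjusted p = 1.64e-11). Fzd2 had 17.2, 16.01, 17.7 and 15.1 RPKM with Fgf8b, against 31.9, 34.2, 31.7 and 27.1 RPKM in brown controls (log2 -0.92, SE 0.0628, limma adjusted p = 1.83e-10), and 29.5 ± 1.03 RPKM with Fgf8b and 43.5 ± 1.11 RPKM in white controls (log2 -0.55, SE 0.0628, limma adjusted p = 2.8e-07). Its lowest brown control value is that of library 15. Fzd7 had 11.03 ± 0.410 RPKM with Fgf8b and 19.1 ± 0.292 RPKM in brown controls (log2 -0.80, SE 0.0441, limma adjusted p = 6.81e-12), and 10.3 ± 0.244 RPKM with Fgf8b and 13.97 ± 0.309 RPKM in white controls (log2 -0.43, SE 0.0441, limma adjusted p = 6.34e-08).

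Fzd5 and Fzd8, a second related pair that signals with Lrp6, fell in both depots. Fzd5 had 4.41 ± 0.304 RPKM with Fgf8b and 7.58 ± 0.323 RPKM in brown controls (log2 -0.75, SE 0.0663), and 3.44 ± 0.267 RPKM with Fgf8b and 4.85 ± 0.288 RPKM in white controls (log2 -0.50, SE 0.0663). Fzd8 had 3.24 ± 0.265 RPKM with Fgf8b and 6.39 ± 0.614 RPKM in brown controls (log2 -0.97, SE 0.095), and 2.26 ± 0.0522 RPKM with Fgf8b and 4.21 ± 0.402 RPKM in white controls (log2 -0.82, SE 0.095). Limma's adjusted p for these 4 changes lay between 6.78e-09 and 2.21e-06. None of the 4 pairs of groups overlapped, and how common that is among all genes tested was not counted.

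Fzd3 and Fzd6 are the receptors known for planar cell polarity, and neither fell in both depots. Fzd6 rose in both: it had 5.23, 5.10, 5.52 and 5.64 RPKM with Fgf8b, against 2.58, 2.85, 2.64 and 3.02 RPKM in brown controls (log2 0.92, SE 0.066, limma adjusted p = 3.63e-10), and 5.34, 5.21, 5.40 and 5.43 RPKM with Fgf8b, against 2.94, 2.61, 2.96 and 2.69 RPKM in white controls (log2 0.91, SE 0.066, limma adjusted p = 5.46e-10). A gene on the other strand overlaps Fzd6, and likewise Fzd5. Fzd3 was the one gene called in opposite directions, a pattern (lower in white and higher in brown) of 0.946% of all genes tested. It had 1.46, 1.46, 1.20 and 1.36 RPKM with Fgf8b, against 1.18, 1.08, 1.13 and 1.30 RPKM in brown controls, which overlap (log2 0.24, SE 0.0873, limma adjusted p = 0.0194), and 0.833, 0.999, 0.975 and 1.001 RPKM with Fgf8b, against 1.17, 1.10, 1.17 and 1.22 RPKM in white controls (log2 -0.25, SE 0.0873, limma adjusted p = 0.0185). The white call was lost without white Fgf8b 2 (-0.187) or white control 7 (-0.222), and the brown one without brown Fgf8b 12 (0.199) or brown control 11 (0.185), and also with upper-quartile factors (log2 0.16, adjusted p = 0.125) and on the representative transcript (log2 0.16, adjusted p = 0.0521). Fzd9, known from brain and bone, and Fzd10 did not pass the filter, with 78 and 6 reads over the 16 libraries. Fzd9 had 26 reads in brown Fgf8b, 18 in brown control, 23 in white Fgf8b and 11 in white control libraries.

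The Sfrp genes had the highest summed level in controls, and all 3 tested fell in both depots, as did 24.2% of all genes tested. The summed Sfrp level was 49.1 ± 1.42 RPKM with Fgf8b and 407.6 ± 7.80 RPKM in brown controls, and 65.8 ± 2.63 RPKM with Fgf8b and 587.0 ± 10.3 RPKM in white controls. Most of it was Sfrp1, which alone was above the summed level of all frizzled receptors in both control groups and below it in both Fgf8b groups. In brown preadipocytes Sfrp1 had 38.1, 39.2, 40.3 and 38.5 RPKM with Fgf8b, against 336, 345, 349 and 349 RPKM in controls, which is 8.84-fold lower (log2 -3.13, SE 0.0356, limma adjusted p = 1.27e-21). White preadipocytes had 60.3, 57.8, 56.3 and 53.1 RPKM with Fgf8b, against 537, 547, 538 and 559 RPKM in controls, which is 9.59-fold lower (log2 -3.26, SE 0.0356, limma adjusted p = 4.73e-22). The 4 libraries of a group lay close together beside the gap between groups.

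Sfrp2, a product of fibroblasts and mesenchymal precursors, fell too. It had 9.12, 9.72, 10.03 and 9.29 RPKM with Fgf8b, against 51.8, 57.2, 52.6 and 52.2 RPKM in brown controls (log2 -2.47, SE 0.0655, limma adjusted p = 1.3e-16), and 7.80, 8.54, 7.72 and 9.44 RPKM with Fgf8b, against 38.6, 36.3, 35.5 and 37.0 RPKM in white controls (log2 -2.10, SE 0.0655, limma adjusted p = 1.9e-15). A gene on the other strand overlaps Sfrp2. Sfrp4, known from bone and from fat, was the lowest of the 3. It had 0.533, 0.490, 0.662 and 0.464 RPKM with Fgf8b on 12 to 17 reads, against 7.90, 10.4, 10.4 and 8.74 RPKM in brown controls on 191 to 292 reads, which is 17.4-fold lower (log2 -3.70, SE 0.173, limma adjusted p = 5.98e-13). In white preadipocytes it had 0.685, 0.744, 0.282 and 0.492 RPKM with Fgf8b on 10 to 25 reads, against 5.78, 4.22, 4.66 and 5.02 RPKM in controls on 147 to 160 reads, which is 8.93-fold lower (log2 -2.78, SE 0.173, limma adjusted p = 5.51e-11). Sfrp5, known as a product of mature white fat cells, was listed at 0 in all 16 libraries.

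**Figure D3:**
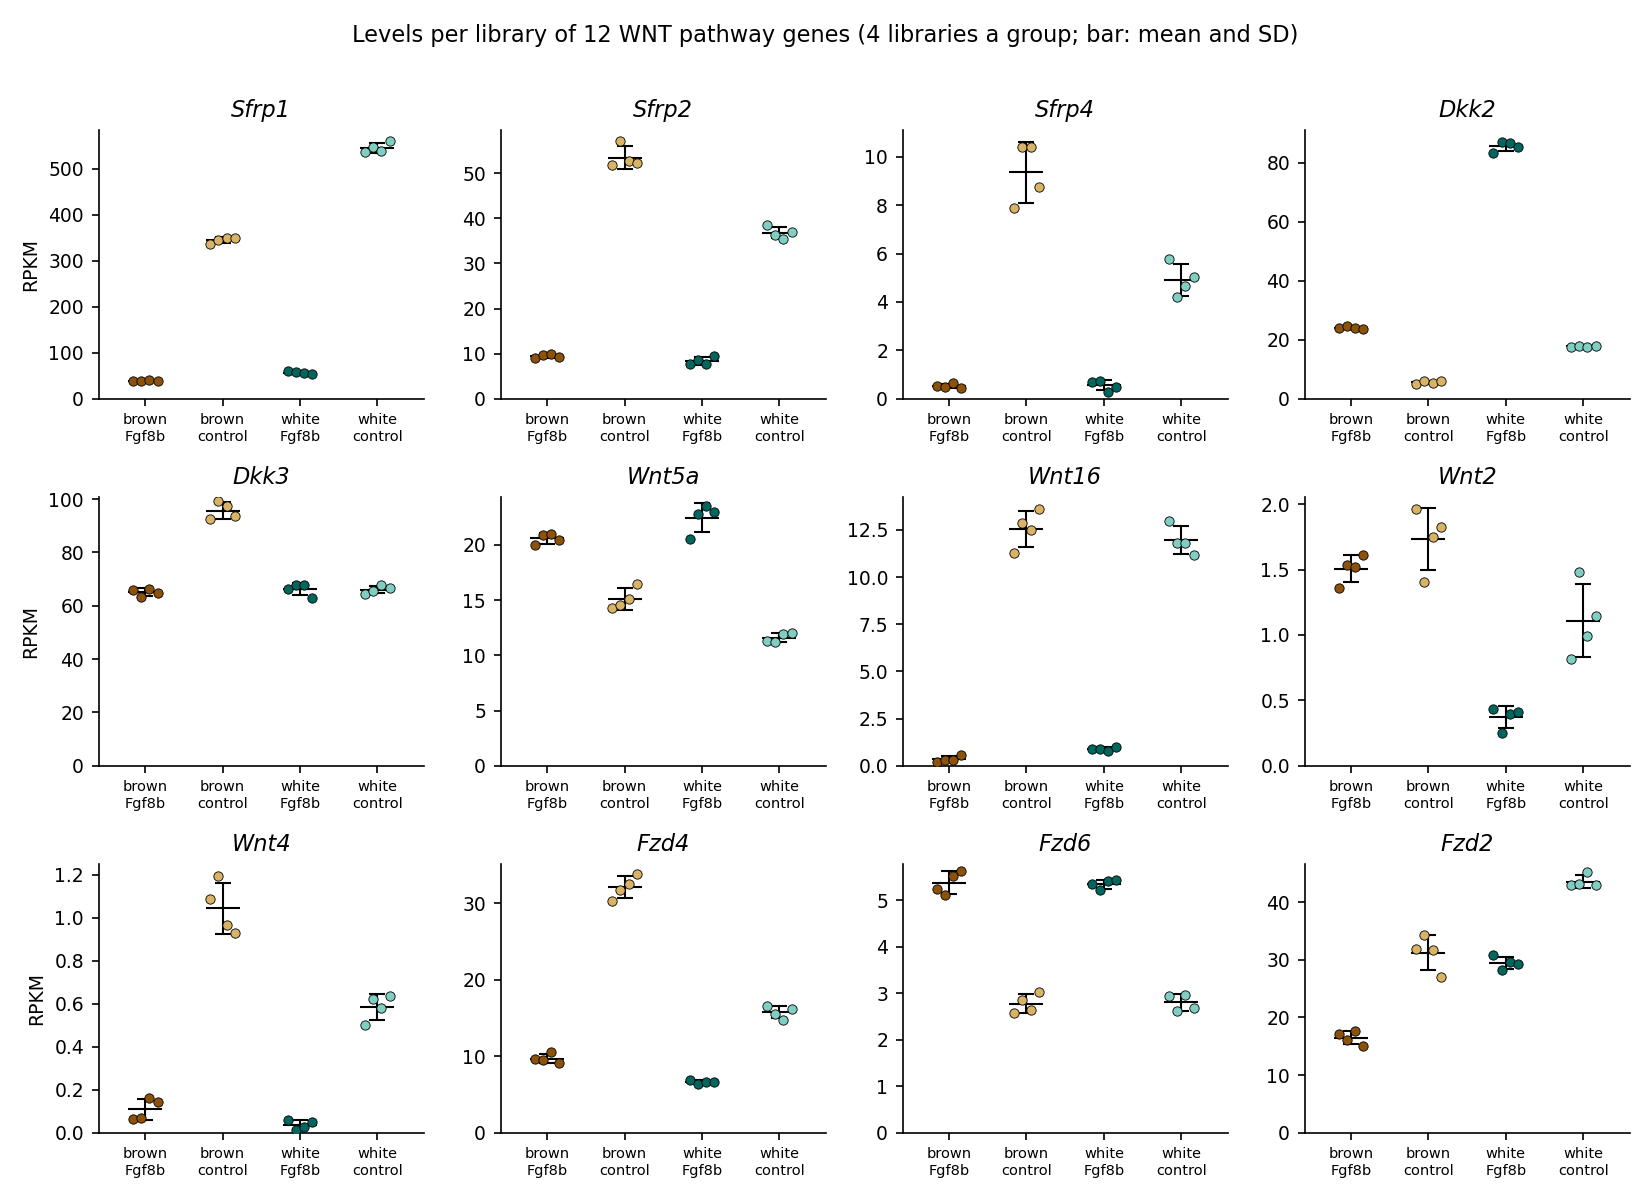
RPKM of the representative transcript (y axis, linear from 0, a separate scale for each gene) in each library of the 4 groups for 12 of the genes; points are libraries, bars the mean and SD of 4. Sfrp1, Sfrp2, Sfrp4, Wnt16, Wnt4 and Fzd4 lie lower with Fgf8b in both depots, Dkk2, Wnt5a and Fzd6 higher, Wnt2 lower in white and Dkk3 lower in brown preadipocytes.

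Of the Dkk genes only Dkk2 and Dkk3 were tested. Dkk2, which binds Lrp5 and Lrp6, had the largest rise of all 23 genes in both depots. It had 23.8, 24.8, 24.0 and 23.7 RPKM with Fgf8b, against 5.11, 6.05, 5.18 and 6.05 RPKM in brown controls, which is 4.30-fold higher (log2 2.09, SE 0.0481, limma adjusted p = 1.65e-17). White preadipocytes had 83.4, 87.0, 86.5 and 85.3 RPKM with Fgf8b, against 17.7, 18.0, 17.7 and 17.7 RPKM in controls, which is 4.81-fold higher (log2 2.25, SE 0.0481, limma adjusted p = 8.73e-18). The white control level lay between the brown control and brown Fgf8b levels. Dkk3, the divergent member of the family that is not known as an Lrp antagonist, had 65.9, 63.2, 66.4 and 64.8 RPKM with Fgf8b, against 92.4, 99.2, 97.3 and 93.8 RPKM in brown controls (log2 -0.53, SE 0.0379, limma adjusted p = 3.16e-10). In white preadipocytes it had 66.2 ± 2.18 RPKM with Fgf8b and 66.1 ± 1.38 RPKM in controls, with overlap (log2 0.00, SE 0.0379, limma adjusted p = 0.949). Dkk3 made up 73.0% of the summed Dkk level with Fgf8b and 94.5% in brown controls, and 43.6% with Fgf8b and 78.8% in white controls. In white Fgf8b libraries Dkk2 was therefore the higher of the 2. Dkk1 had 2 reads over the 16 libraries, both in brown Fgf8b libraries, and Dkk4 was listed at 0 in all.

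Between depots under control treatment, 13 of the 23 genes were higher and 3 lower in brown preadipocytes, where 33.9% of all genes tested were called, 18.1% higher and 15.9% lower. The median log2 difference of the 23 was 0.46, and that of all genes tested 0.01. Dkk2 was 3.18-fold lower in brown controls, the largest difference (log2 -1.65, SE 0.0481, limma adjusted p = 1.18e-14), Sfrp1 was 1.58-fold lower (log2 -0.67, SE 0.0356, limma adjusted p = 4.05e-11) and Fzd2 1.39-fold lower (log2 -0.48, SE 0.0628, limma adjusted p = 7.82e-06). Fzd4 was 2.04-fold higher in brown controls (log2 1.03, SE 0.052, limma adjusted p = 2.03e-11). Also higher in brown controls were Sfrp4 (log2 0.89), Wnt2b (0.82), Wnt4 (0.72), Wnt2 (0.63), Fzd5 (0.61), Fzd8 (0.60), Sfrp2 (0.52), Dkk3 (0.51), Fzd1 (0.50), Fzd7 (0.46), Wnt9a (0.40) and Wnt5a (0.36). The call of Wnt9a was lost in 9 of the 16 fits that left out 1 library: those without white Fgf8b 2 or 8, without any of brown control 9, 11, 13 and 15, and without white control 1, 3 or 5, with values of 0.36 to 0.432. It was also lost with a pseudocount of 0.1 (adjusted p = 0.0762) and with no filter (adjusted p = 0.0557). Single libraries of the 2 depots overlapped for Wnt2. Wnt16 (0.03), Fzd3 (0.01), Fzd6 (0.00), Wnt5b (-0.10), Wnt10a (0.25), Wnt10b (0.23) and Wnt11 (0.55) were not called, and the last of these was called on recovered reads (0.62, limma-voom adjusted p = 0.0313), on the representative transcript (0.32, adjusted p = 0.0195), in a fit of the 8 control libraries (adjusted p = 0.0075) and without white Fgf8b 2 (adjusted p = 0.0357). The order of the receptors differed: in brown controls Fzd1 was highest and Fzd4 overlapped Fzd2, while in white controls Fzd2 was highest, then Fzd1, then Fzd4.

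With Fgf8b, 8 of the 23 were higher and 6 lower in brown than in white preadipocytes, where 51.6% of all genes were called, 26.9% higher and 24.7% lower. Their median log2 difference was 0.10, and that of all genes tested 0.01. This comparison shares its libraries with the Fgf8b comparisons, so its values stand beside theirs and are no separate evidence. Wnt2 was 4.04-fold higher in brown Fgf8b libraries (log2 1.81, SE 0.17, limma adjusted p = 6.48e-08). Wnt16 was 2.58-fold lower (log2 -1.17, SE 0.142, limma adjusted p = 1.7e-06) and Dkk2 3.55-fold lower (log2 -1.81, SE 0.0481, limma adjusted p = 3.16e-15). Higher too were Wnt10a (0.71), Wnt4 (0.61), Fzd4 (0.54), Fzd3 (0.50), Fzd1 (0.47), Fzd8 (0.45) and Fzd5 (0.36), and lower were Fzd2 (-0.84), Wnt5b (-0.58), Sfrp1 (-0.54) and Wnt5a (-0.14), the last with overlapping libraries. On the representative transcript alone the difference of Wnt4 was not called (0.18, adjusted p = 0.061), that of Wnt16 was -0.74 and that of Wnt2 1.205. Fzd7 (0.10) and Sfrp2 (0.15) were not called, and Sfrp2 was called without brown control 15 (0.15, adjusted p = 0.0451), white Fgf8b 4 (0.18) or white Fgf8b 8 (0.21). Both genes were called on the representative transcript (adjusted p = 0.0212 for Fzd7 and 0.0103 for Sfrp2) and on recovered reads (limma-voom adjusted p = 0.0365 and 0.0257). Dkk3, Wnt2b and Sfrp4, higher in brown controls, differed by -0.03, 0.00 and -0.03 with Fgf8b (SE 0.0379, 0.137 and 0.173) and were not called. Wnt9a (0.17), Wnt11 (0.14), Fzd6 (0.00) and Wnt10b (-0.20) were not called either. Of 299 accessions that the table lists more than once, 145 have unequal values in white and 0 in brown libraries, and whether the depots were processed apart, which cannot be told apart from the depot here, is not stated.

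**Figure D4:**
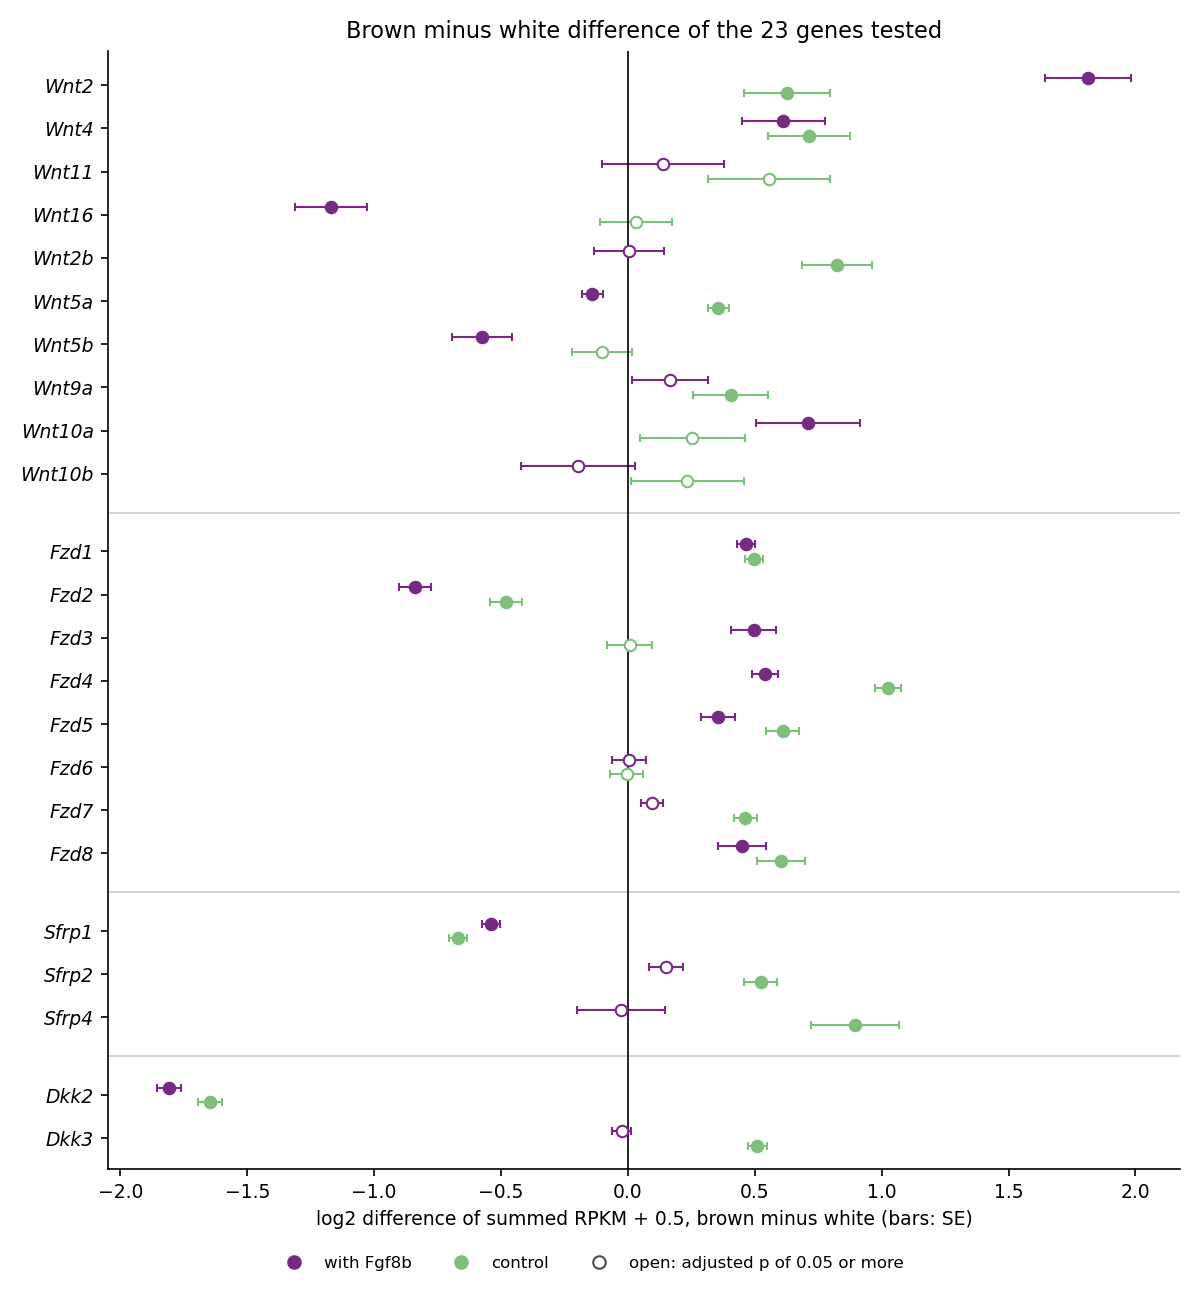
Log2 difference between depots (x axis, log2 of summed RPKM + 0.5, brown minus white) of the 23 genes tested, by class down the page, with Fgf8b and under control treatment; points are limma estimates, bars are standard errors and open points were not called. Dkk2 lies far to the left under both treatments, while Wnt16 does so with Fgf8b alone and Wnt2 lies far to the right with Fgf8b.

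The test of the difference between the 2 responses, brown minus white, called 13 of the 23 genes, 2 higher and 11 lower, where 34.9% of all genes tested were called, 17.1% higher and 17.8% lower. The median was -0.36, against -0.01 for all genes tested. Wnt2 (1.19, SE 0.241, limma adjusted p = 0.000842) and Fzd3 (0.49, SE 0.124, limma adjusted p = 0.00472) were the 2 higher. Wnt2 fell in white and was not called in brown preadipocytes. Wnt16 was lower by -1.20 (SE 0.201, limma adjusted p = 0.000143), so its fall was deeper in brown preadipocytes, and so were those of Sfrp4 (-0.92, SE 0.244, limma adjusted p = 0.00666), Fzd4 (-0.48, SE 0.0735, limma adjusted p = 5.19e-05), Fzd7 (-0.37), Sfrp2 (-0.37), Fzd2 (-0.36) and Fzd5 (-0.25). For Wnt5a the difference was -0.50 (SE 0.0601, limma adjusted p = 4.24e-06), a smaller rise in brown preadipocytes. Wnt2b (-0.82), Dkk3 (-0.54) and Wnt5b (-0.47) fell in brown preadipocytes and were not called in white ones. The call of Fzd5 was lost in 8 of the fits that left out 1 library, those without brown Fgf8b 12 or 16, brown control 9 or 13, white Fgf8b 4 or 6 and white control 1 or 5, with values of -0.255 to -0.214. It was also lost with no filter (adjusted p = 0.0508) and with median-of-ratios factors (adjusted p = 0.058). That of Wnt5b was lost in 7, those without brown Fgf8b 16, brown control 13 or 15, white Fgf8b 2 or 8 and white control 1 or 3, with values of -0.459 to -0.396. On recovered reads Sfrp4 (limma-voom adjusted p = 0.0585) and Wnt5b (0.06) were not called. For Fzd6 the difference was 0.01 (SE 0.0933), for Fzd1 -0.03 (SE 0.0505) and for Dkk2 -0.16 (SE 0.0681, limma adjusted p = 0.0753), which was called without brown control 9 (-0.197) or 13 (-0.193), with a pseudocount of 1 (adjusted p = 0.049), with upper-quartile factors (0.0438), on the representative transcript (-0.22, adjusted p = 0.0137) and on recovered reads (limma-voom adjusted p = 0.0324). Sfrp1 differed by 0.13 (SE 0.0503, limma adjusted p = 0.0516), called without white Fgf8b 2 (0.158), with a pseudocount of 1 (adjusted p = 0.049), with a filter of 1 RPKM (0.0492), with median-of-ratios factors (0.148, adjusted p = 0.03) and on the representative transcript with the filter on it (0.0485). Fzd8 (-0.15), Wnt9a (-0.24), Wnt10a (0.45), Wnt10b (-0.43) and Wnt11 (-0.42) were not called. Wnt4 differed by -0.10 (SE 0.23), was called on the representative transcript (-0.33, adjusted p = 0.0261) and changed sign with a pseudocount of 0.1 (0.48) and on recovered reads (0.655). On the representative transcript alone the differences of Wnt2 and Wnt2b were 0.72 and -0.535.

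Other genes of the pathway were counted in 6 lists of 89 genes, of which 72 were tested. Of all genes tested, 36.7% rose and 34.7% fell in brown, and 36.3% rose and 29.5% fell in white preadipocytes. Counts in such short lists describe the lists only. Of 10 co-receptors and other WNT receptors, 2 rose and 7 fell in brown, and 2 rose and 6 fell in white preadipocytes, with a median log2 change of -0.75 and -0.50. Lrp6, the main beta-catenin co-receptor, had 13.8 ± 0.427 RPKM with Fgf8b and 30.4 ± 1.27 RPKM in brown controls, and 15.2 ± 0.393 RPKM with Fgf8b and 30.4 ± 0.520 RPKM in white controls. Its log2 changes were -1.15 and -1.02, and those of Lrp5, its relative, -0.50 and -0.64. Ror1, a receptor of Wnt5a, fell (log2 -2.38 in brown and -2.61 in white preadipocytes), while its relative Ror2 changed by 0.36 and 0.21. Ryk, another WNT receptor, changed by -0.26 and -0.17. Limma's adjusted p was at most 0.00476 for each of these changes. Lgr6, an R-spondin receptor, had 2.54 ± 0.282 RPKM with Fgf8b and 0.6001 ± 0.0847 RPKM in brown controls, and 2.35 ± 0.192 RPKM with Fgf8b and 0.683 ± 0.109 RPKM in white controls (log2 1.99 and 1.61, limma adjusted p = 3.55e-11 and 1.02e-09). The other R-spondin receptors on the list fell in both depots, Lgr4 by log2 changes of -1.14 and -1.29 (limma adjusted p = 1.14e-12 and 2.27e-13) and Lgr5 by -2.66 and -4.50 (limma adjusted p = 2.77e-09 and 1.57e-12). Over all libraries Lgr4 averaged 13.4 RPKM, Lgr6 1.54 RPKM and Lgr5 0.994 RPKM.

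Of 5 tested genes of WNT secretion and R-spondins, 1 rose and 4 fell in each depot. The share of all genes tested that were called was 71.4% in brown and 65.7% in white preadipocytes. R-spondins raise WNT signalling by keeping frizzled receptors on the surface. Rspo2 had 0.511 ± 0.131 RPKM with Fgf8b and 11.9 ± 0.862 RPKM in brown controls, and 0.379 ± 0.0974 RPKM with Fgf8b and 10.3 ± 0.368 RPKM in white controls (log2 -4.33 and -4.39, SE 0.149 each). Rspo3 had 0.525 ± 0.172 RPKM with Fgf8b and 10.03 ± 0.806 RPKM in brown controls, and 0.169 ± 0.0792 RPKM with Fgf8b and 4.16 ± 0.275 RPKM in white controls (log2 -4.02 and -3.84, SE 0.2 each). Wls, the carrier that takes WNT proteins to the surface, was abundant, with 109.6 ± 1.31 RPKM with Fgf8b and 164.8 ± 11.9 RPKM in brown controls, and 125.9 ± 4.11 RPKM with Fgf8b and 157.9 ± 1.97 RPKM in white controls (log2 -0.59 and -0.33). Porcn, which attaches their lipid, changed by -0.91 and -0.67. Each of these 8 changes had a limma adjusted p of at most 0.000274.

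Among 7 tested secreted inhibitors and genes of receptor removal outside the Sfrp and Dkk families, 1 rose and 3 fell in each depot. Over all genes tested, 71.4% were called in brown and 65.7% in white preadipocytes. Frzb, also known as Sfrp3, was not called with Fgf8b in brown (log2 -0.25, limma adjusted p = 0.0586) or white preadipocytes (0.17, limma adjusted p = 0.186); the brown change was called with median-of-ratios factors (-0.28), with upper-quartile factors (-0.335), on the representative transcript (-0.21), on recovered reads (-0.23), in a fit of the 8 brown libraries, and without white Fgf8b 2 or 4 or brown Fgf8b 10. It was 6.01-fold higher in brown than in white controls, at 8.53 ± 0.0852 RPKM in brown and 1.42 ± 0.0877 RPKM in white controls (log2 2.48, SE 0.113, limma adjusted p = 4.28e-12). Trabd2b, a protease that cleaves WNT proteins, changed by -1.10 and -0.56. Wif1, another inhibitor, stayed under 0.13 RPKM in every library.

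Of 12 tested beta-catenin targets and feedback genes, 6 rose and 5 fell in brown preadipocytes, where 71.4% of all genes tested were called. In white ones, where 65.7% were called, 4 rose and 5 fell. Their median log2 change was 0.11 in brown and -0.06 in white preadipocytes. Axin2, the most used readout of beta-catenin signalling, was low: it had 0.194 ± 0.0509 RPKM with Fgf8b and 0.137 ± 0.0140 RPKM in brown controls, with overlap, and 0.227 ± 0.0232 RPKM with Fgf8b and 0.528 ± 0.0520 RPKM in white controls. The log2 change of its summed entries was 0.53 in brown (SE 0.137, limma adjusted p = 0.00198) and -1.06 in white preadipocytes (SE 0.137, limma adjusted p = 1.44e-06). The brown call was lost on the representative transcript (log2 0.12, adjusted p = 0.115) and on recovered reads (log2 0.45, adjusted p = 0.123), and the difference of the responses was 1.60 (SE 0.193, limma adjusted p = 4.29e-06), or 0.62 on the representative transcript. Nkd1, a feedback inhibitor, had 0.157 ± 0.0296 RPKM with Fgf8b and 1.53 ± 0.147 RPKM in brown controls, and 0.368 ± 0.0845 RPKM with Fgf8b and 2.41 ± 0.136 RPKM in white controls (log2 -2.99 and -2.55, limma adjusted p = 3.46e-13 and 4.99e-12; -1.63 in brown preadipocytes on the representative transcript). Wisp2, a secreted protein induced by WNT, fell too (log2 -5.53 and -4.64, limma adjusted p = 7.46e-18 and 1.28e-16). Lef1 had 0.743 ± 0.0808 RPKM with Fgf8b and 0.228 ± 0.0917 RPKM in brown controls, and 1.01 ± 0.215 RPKM with Fgf8b and 0.453 ± 0.0742 RPKM in white controls (log2 1.54 and 1.11, limma adjusted p = 1.11e-06 and 6.48e-05; 0.78 and 0.66 on the representative transcript). Sp5, another target, had at most 0.0302 RPKM in any library.

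Of 24 genes of signal transduction, 10 rose and 9 fell in brown preadipocytes, where 71.4% of all genes tested were called. In white ones, where 65.7% were called, 10 rose and 12 fell. Tcf7, a partner of beta-catenin, rose, with 1.92 ± 0.194 RPKM with Fgf8b and 0.426 ± 0.156 RPKM in brown controls, and 2.24 ± 0.261 RPKM with Fgf8b and 0.268 ± 0.0585 RPKM in white controls (log2 1.99 and 2.58, limma adjusted p = 4.43e-09 and 1.28e-10). Tle2, a co-repressor, fell (log2 -1.44 in brown and -0.73 in white preadipocytes). In the planar cell polarity and calcium branch, 2 of 14 genes rose and 9 fell in brown, and 3 rose and 9 fell in white preadipocytes. Fat4, a large cadherin, fell (log2 -1.79 and -2.66), and so did Daam2, a formin bound by dishevelled (-1.92 and -1.88), while Dchs1, the cadherin that pairs with Fat4, rose (0.76 and 0.90), each with a limma adjusted p of at most 5.73e-08. Dchs1 was also lower in brown than in white controls (log2 -1.80, SE 0.078, limma adjusted p = 2.26e-12).

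Markers of other cells moved with Fgf8b beside these genes, in both directions. The 4 endothelial markers looked at summed to 1.41 to 1.73 RPKM with Fgf8b and 7.31 to 8.56 RPKM in brown controls, and to 2.39 to 2.88 RPKM with Fgf8b and 10.96 to 11.7 RPKM in white controls. Most of the control sum was Tek, and Pecam1 was under 0.23 RPKM in every library. Cdh5, a cadherin that defines endothelial cells, went the other way, with 0.844 ± 0.0914 RPKM with Fgf8b and 0.571 ± 0.174 RPKM in brown controls, and 1.92 ± 0.272 RPKM with Fgf8b and 1.125 ± 0.1 RPKM in white controls. S100b, which Schwann cells express among other cells, had 1.29 ± 0.371 RPKM with Fgf8b and 8.40 ± 1.26 RPKM in brown controls, and 1.665 ± 0.294 RPKM with Fgf8b and 5.69 ± 0.464 RPKM in white controls. Sox10, a factor that defines Schwann cells, averaged 0.929 and 1.23 RPKM in brown Fgf8b and control groups, against 0.0151 and 0.0265 RPKM in the white ones. The 7 preadipocyte markers themselves summed to 1093 to 1139 RPKM with Fgf8b and 2112 to 2540 RPKM in brown controls, and to 1638 to 1826 RPKM with Fgf8b and 3208 to 3303 RPKM in white controls. The lower sum was mainly that of Col1a1, a collagen gene, and Ly6a, and the members did not all go one way. Thy1, a surface marker on the same list, had 554.7 ± 4.76 RPKM with Fgf8b and 294.1 ± 7.33 RPKM in brown controls, and 745.7 ± 16.7 RPKM with Fgf8b and 269.2 ± 13.2 RPKM in white controls. Pdgfra averaged 85.3 RPKM with Fgf8b and 67.5 RPKM in brown controls, and 98.1 RPKM with Fgf8b and 94.3 RPKM in white controls. Cd34 averaged 16.98 RPKM with Fgf8b and 19.3 RPKM in brown controls, and 29.3 RPKM with Fgf8b and 22.9 RPKM in white controls. Pdgfrb was lower in both depots, with 70.3 RPKM against 140.5 RPKM in brown controls and 46.25 RPKM against 129.0 RPKM in white controls. Dlk1 had 12.1 RPKM against 13.6 RPKM in brown controls and 15.45 RPKM against 43.0 RPKM in white controls. Of 4 leukocyte markers 3 are in the table, and they summed to 1.05 to 1.54 RPKM with Fgf8b and 2.39 to 4.24 RPKM in brown controls, and to 1.46 to 2.02 RPKM with Fgf8b and 1.71 to 2.49 RPKM in white controls. The lower sum was that of Lyz2, a lysozyme gene, while Cd68, a macrophage marker, had 1.098 ± 0.156 RPKM with Fgf8b and 0.593 ± 0.0588 RPKM in brown controls, and 1.61 ± 0.258 RPKM with Fgf8b and 0.913 ± 0.250 RPKM in white controls. Ptprc, which defines leukocytes, was at 0 in both control groups and under 0.02 RPKM elsewhere. The 4 epithelial markers summed to more with Fgf8b, 0.545 to 0.667 RPKM against 0.0731 to 0.216 RPKM in brown controls, and 1.19 to 1.42 RPKM against 0.152 to 0.267 RPKM in white controls. Most of that was Krt18, a keratin gene, at 0.4499 ± 0.0256 RPKM with Fgf8b and 0 in brown controls, and 1.08 ± 0.0585 RPKM with Fgf8b and 0.0572 ± 0.0616 RPKM in white controls. The sums of 4 mesothelial markers, nearly all Krt19, were 11.7 to 14.9 RPKM with Fgf8b and 12.6 to 14.7 RPKM in brown controls, and 8.94 to 11.9 RPKM with Fgf8b and 12.6 to 14.3 RPKM in white controls. Those of 4 skeletal muscle markers stayed under 0.77 RPKM in every library. Whether these shifts had a part in the changes above was not tested. In such bulk samples fewer cells of a type and less RNA per cell cannot be told apart.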

How the data were processed

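Primary preadipocytes of interscapular brown and inguinal white fat were treated with Fgf8b or control, and total RNA was extracted with TRIsure and a column and made into TruSeq v2 libraries, per the labels' protocols. CASAVA and bcl2fastq were used, per the submitters' processing notes; no aligner, genome build, annotation or strand setting is given in the sources used here. The authors deposited 1 table of RPKM per transcript accession, with decimal commas, for 16 libraries and 168326 entries.

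Entries with no gene symbol (23178, or 13.8%) and 808 entries whose accession is listed more than once were left out, which left 144543 entries of 29057 genes. RPKM was summed by symbol. Printed levels are those of a representative transcript, the RefSeq entry with the highest mean. Representative values came out as whole reads, with a root mean square deviation under 0.02 reads in all 16 libraries, for 99.7% of the genes tested, which gave reads and depth. The file holds no counts, so the count test planned for that case was not used. One limma fit (mean-variance trend, robust moderation) of 4 group means over all 16 libraries used log2(summed RPKM + 0.5) of the 15220 genes that reached 0.5 RPKM in 4 or more libraries, with Benjamini-Hochberg adjustment over all of them and calls at an adjusted p under 0.05. It gave 5 comparisons: Fgf8b in each depot, depot with Fgf8b, depot under control, and how the 2 responses differ. The fit was also run on simulated reads, drawn with the same spread for every gene, without genes of few reads and without sums over entries. That run does not cover such genes or summed RPKM. Alternatives were other pseudocounts, filters, scaling factors, the representative transcript, fits of 8 libraries, leaving out each library, keeping repeated accessions, limma without trend and robust moderation, and limma-voom on recovered reads; 1 more, the filter on the representative transcript, was added after the data were seen.

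The genes were found by symbol. The other pathway genes named are part of those that a written rule gives: key genes of the pathway and, in each list and comparison, the 2 largest called changes at a mean of at least 1 RPKM. Dusp6 and Spry4 were set as the check of the treatment; Spry4 had 12.7 ± 0.448 RPKM with Fgf8b and 1.89 ± 0.200 RPKM in brown controls, and 7.60 ± 0.640 RPKM with Fgf8b and 2.43 ± 0.0594 RPKM in white controls. The genes and lists were chosen with earlier results of these data known. Tools were R 4.3.3, limma 3.58.1, Python 3.11.15, scipy 1.17.1, numpy 2.4.6, matplotlib 3.10.9 and pandas 2.3.3.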

Additional observations from a re-analysis of the deposited data

Results flagged for a closer look

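The response to Fgf8b differed between depots, by the test of the difference itself in limma at an adjusted p under 0.05, for 13 of the 23 genes tested. The share of all genes tested that were called so was 34.9%. Brown minus white, the difference on the log2 scale was -1.20 for Wnt16, -0.92 for Sfrp4, -0.82 for Wnt2b, -0.54 for Dkk3, -0.50 for Wnt5a, -0.48 for Fzd4, -0.47 for Wnt5b, -0.37 for Fzd7, -0.37 for Sfrp2, -0.36 for Fzd2 and -0.25 for Fzd5. It was 1.19 for Wnt2 and 0.49 for Fzd3. As given above, the calls of Fzd5 and Wnt5b were lost in some fits that left a library out. Those of Sfrp4 and Wnt5b were lost on recovered reads.

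In 5 of 92 groups of 4 libraries, 1 library lay far from the other 3, its gap over the whole range being above Dixon's critical value, and chance gives about 1 in 20. These were Dkk2 in white control 3 (18.0 RPKM), Fzd1 in white Fgf8b 4 (26.2 RPKM), Fzd2 in white control 5 (45.2 RPKM), Fzd3 in white Fgf8b 2 (0.833 RPKM) and Sfrp2 in brown control 11 (57.2 RPKM). None of them is brown control 15.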

How the results depend on the processing

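No paired analysis was made because no label names pairs of libraries. The numbers run from 1 to 8 in white and from 9 to 16 in brown libraries, odd for controls and even for Fgf8b. Whether neighbouring numbers were pairs is not stated. Under 28 alternatives, 16 of which left out 1 library, the 23 genes gave 3177 values over the 5 comparisons; 3053 kept direction and side of the threshold, 49 lost a call, 31 gained one and 44 changed sign, none of the last where a change was called. The fits of 8 libraries give no difference of responses. With the representative transcript and the filter on it, 3 genes were called higher with Fgf8b in brown preadipocytes, against 5, because Wnt10a does not pass that filter and Fzd3 was not called on that transcript (adjusted p = 0.0556, and 0.0521 with the original filter). Leaving out 1 library gave 4 to 5 higher and 17 lower with Fgf8b in brown preadipocytes, 3 to 4 and 13 to 16 in white ones, 12 to 13 and 3 between depots under control, 8 to 9 and 6 with Fgf8b, and 2 to 3 and 9 to 11 for the difference of responses. Signs changed, always near 0 or on few reads, with the cause not tested. With median-of-ratios factors these were Dkk3 in white preadipocytes (-0.047) and Fzd3 between control depots (-0.001). With upper-quartile factors these were Dkk3 (-0.058) and Wnt5b (-0.007) in white preadipocytes, Fzd6 (-0.025) and Wnt2b (-0.019) between Fgf8b depots and the difference for Fzd6 (-0.019). With limma-voom these were Fzd6 (-0.002) and Sfrp4 (0.057) between Fgf8b depots and the difference for Wnt4 (0.655, and 0.483 with a pseudocount of 0.1), and on the representative transcript Sfrp4 (0.000208 with either filter). Leaving out 1 library gave -0.010 to 0.030 for Dkk3 and -0.028 to 0.113 for Wnt5b in white preadipocytes, -0.039 to 0.063 for Fzd3 and -0.040 to 0.028 for Fzd6 between control depots, -0.011 to 0.031 for Fzd6, -0.218 to 0.093 for Sfrp4, -0.115 to 0.315 for Wnt11 and -0.116 to 0.062 for Wnt2b between Fgf8b depots, and -0.023 to 0.044 for the difference for Fzd6. Genes with few reads, such as Wnt4, Wnt10a, Wnt10b and Wnt11, are limited by depth.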
